A study of Mus musculus with 31 samples.

Results

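The genes described here encode the relay between a heptahelical receptor and its second messengers: heterotrimeric G protein subunits, RGS proteins, phospholipase C, the inositol trisphosphate (IP3) receptor, protein kinase C, adenylyl cyclases, cAMP-dependent protein kinase and phosphodiesterases. Members were chosen by name alone, as every probe set that the array's annotation pairs with a single gene symbol beginning with Gna, Gnb, Gng, Rgs, Adcy, Pde, Plcb, Plcd, Plcg, Prkc, Prka or Itpr. This gave 123 of the 12422 probe sets that are not array controls, for 83 of 8251 named genes. The name rule also took in 7 genes that stand apart from these roles: the antisense transcript Gnasas1, the AMP-activated kinase subunits Prkab1 and Prkag1, Prkcsh, Pde4dip, and the peptide PACAP (Adcyap1) with its receptor (Adcyap1r1). They are kept in every count, which leaves 76 genes with the stated roles.

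The cells were D10.G4.1, a mouse T cell clone of the type 2 helper (Th2) kind, so every sample came from the same clone, and the labels name no other cell. Cells received either the neuropeptide neuromedin U (NmU) or phosphate-buffered saline (PBS), and total RNA was taken at 0.8, 3, 6 and 12 h. There were 8 groups of 4 arrays each, save for the 3 arrays of NmU at 3 h, giving 16 PBS and 15 NmU arrays. No dose, culture medium or strain was found in the labels. Whether replicates were separate cultures is not stated either, and the p-values therefore reflect only how far these samples scatter, which could be technical scatter.

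A heterotrimeric G protein has an alpha subunit that binds GTP when the receptor is engaged and separates from the beta-gamma dimer. Alpha subunits of the Gq class activate phospholipase C-beta, which splits a membrane lipid into IP3, a releaser of stored calcium, and diacylglycerol, an activator of protein kinase C; alpha subunits of the Gs and Gi classes raise and lower cAMP through adenylyl cyclase. RGS proteins hasten GTP hydrolysis by alpha subunits and so end the signal, and phosphodiesterases end the cAMP signal. Neuromedin U receptors are known to couple to Gq and, in some cells, to Gi, and in T cells the same calcium and diacylglycerol branches are also opened by the antigen receptor through phospholipase C-gamma.

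The promoters of the 4 genes with the largest or most stable responses described below are shown first, since these genes rose or fell at different times and their sequence letters can be set side by side. Each line gives the 250 bases before the annotated transcription start, 5′ to 3′ on the gene's strand, from RefSeq on GRCm38.p6: Rgs10 at chr7:128418173-128418422 (minus strand), Rgs16 at chr1:153740103-153740352 (plus strand), Prkacb at chr3:146812947-146813196 (minus strand, 1 of 3 annotated promoters) and Pde6d at chr1:86582786-86583035 (minus strand). Capitals mark any match on either strand to TGACGTCA or its core TGACG (the cAMP response element), TGANTCA (AP-1), GGAAA (the core bound by NFAT) or GCGNGGGCG (Egr).
Rgs10: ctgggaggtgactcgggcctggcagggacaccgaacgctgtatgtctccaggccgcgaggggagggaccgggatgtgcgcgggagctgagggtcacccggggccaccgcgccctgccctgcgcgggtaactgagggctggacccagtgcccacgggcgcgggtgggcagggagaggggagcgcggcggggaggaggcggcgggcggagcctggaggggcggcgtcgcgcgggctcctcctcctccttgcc
Rgs16: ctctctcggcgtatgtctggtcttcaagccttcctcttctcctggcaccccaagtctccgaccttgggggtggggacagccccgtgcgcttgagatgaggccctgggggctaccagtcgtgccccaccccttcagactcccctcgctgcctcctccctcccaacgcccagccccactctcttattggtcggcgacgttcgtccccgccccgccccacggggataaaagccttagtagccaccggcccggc
Prkacb: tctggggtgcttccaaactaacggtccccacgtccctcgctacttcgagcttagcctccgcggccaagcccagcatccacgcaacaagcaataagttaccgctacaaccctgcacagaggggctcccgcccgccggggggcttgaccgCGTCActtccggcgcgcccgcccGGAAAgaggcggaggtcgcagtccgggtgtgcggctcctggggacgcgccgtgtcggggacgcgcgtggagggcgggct
Pde6d: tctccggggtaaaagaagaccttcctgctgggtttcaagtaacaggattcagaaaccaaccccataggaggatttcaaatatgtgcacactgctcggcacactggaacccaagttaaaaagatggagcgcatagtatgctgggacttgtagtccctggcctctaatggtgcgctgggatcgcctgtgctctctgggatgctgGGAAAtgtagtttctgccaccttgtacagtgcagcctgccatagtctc
Rgs10 and Rgs16, which rose, held none of these letters in the window, which says only that they are not in these 250 bases. Of the genes that fell, the Prkacb promoter shown held the cAMP response element core at position -102 and a GGAAA at -79, and Pde6d a single GGAAA at -48. The other annotated promoters of Prkacb held GGAAA but no TGACG. Such matches are common: among the same 250 bases of 32851 promoters, TGACG was found in 17.8%, GGAAA in 55.6%, TGANTCA in 6.75%, GCGNGGGCG in 4.70% and the full TGACGTCA, which contains TGACG, in 1.55%. Over the 106 promoters found for 65 of the 83 member genes, the shares were 23.6%, 51.9%, 4.72%, 7.55% and 0.943%, and over the 13 promoters of the called genes Rgs10, Rgs16, Gng12, Prkacb, Prkar1b and Pde6d they were 15.4%, 61.5%, 0%, 7.69% and 0%. The 13 include Prkar1b promoters that overlap and share a GGAAA match. Rgs14 and Prkce were not among the promoters used.

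Signals are deposited intensities on a linear scale, set to a common mean on every array before deposit, and they rank samples for 1 probe set but not probe sets against each other. A probe set was tested if its group mean exceeded a signal of 20.2, the 40th percentile of all values, in at least 1 of the 8 groups. This kept 7930 probe sets in all and 72 of the 123 members, for 56 of the 83 genes; the other 51 probe sets and 27 genes were too dim to test. Of the 72, 3 passed only through NmU groups (Rgs16 161609_at, Prkar1b 94944_at and Adcy6) and 4 only through PBS groups (Gnaq, Gng12 99477_at, Prkcq 161853_f_at and Rgs5), so that a difference in that direction was favoured for them by the filter. Arrays of a group correlated at 0.951 to 0.982 over all probe sets. The lowest mean correlation with its group, 0.956, belonged to replicate 4 of PBS at 3 h, and replicate 4 of NmU at 6 h gave 1705.4 for Egr2 where its 3 companions gave 251.9 to 304.4; values without these arrays are given where a call depends on them. Of 11 marker genes, mostly of T cells in general and with Gata3, Il4 and Il5 for Th2 cells, 10 had a probe set. All 10 were above 20.2 on all 31 arrays, whereas 0 of 5 CD8 T cell and NK cell genes were.

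In PBS-treated cells every step of the Gq route and of the cAMP route had a gene above this level with at least 1 probe set. For Plcb1 and for the IP3 receptor the probe sets of the gene disagreed, as given below. Of the 123 probe sets, 49 were above 20.2 on all 16 PBS arrays and 38 on none, and 39 of the 83 genes had at least 1 probe set of the first kind. All 5 genes of cAMP-dependent protein kinase and the only IP3 receptor on the list, Itpr2, were in that group, against 2 of 7 adenylyl cyclases and 2 of 11 phosphodiesterase genes. A probe set below the level may be a poor probe as well as a silent gene, since probe sets of the same gene often differed.

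**Figure D1:**
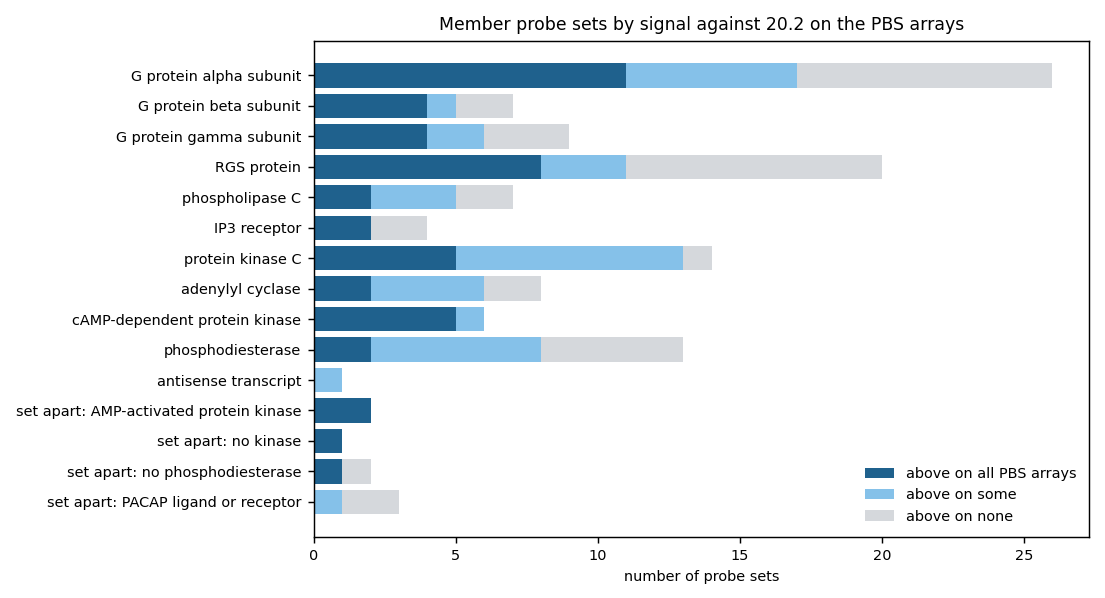
Number of probe sets (horizontal axis) for each role, split by whether the signal was above 20.2 on all 16 PBS arrays (dark), on some (light blue) or on none (grey). Of the 26 probe sets for G protein alpha subunits 11 were above on all, and of the 20 for RGS proteins 8.

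Among alpha subunits, 7 of 14 genes were above the level on all PBS arrays. The Gq class was represented by Gna15, the Gq-class subunit of blood cells, at 23.8 to 41.9 with a median of 32.0, above the level on 16 of 16 PBS arrays. Gnaq, the broadly expressed Gq subunit, lay across the level at 9.3 to 38.8 (median 20.6), above it on 9 of 16 arrays. Gna11 exceeded the level on at most 3 of the 16 arrays, and Gna14 on 0. The Gs subunit Gnas was read by 1 of its 3 probe sets at 4365.7 to 6546.0 (median 5370), while the other 2 were never above the level. In the Gi class Gnai2, the main Gi subunit of lymphocytes, was above the level with all 3 of its probe sets and Gnai3 with its own at 856.9 to 1631.1, and Gnai1 on 0 arrays. Gna12 and Gna13 were also above it on all arrays. So was Gnao1 with 103843_at and 161902_f_at, whereas its 104414_at was above it on 5 and its 100388_at and 103844_at on 0 of 16. Gnat2 was above it on 13 of 16.

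Of the partners of these subunits, Gnb1, Gnb2, Gng2, Gng3, Gng10 and Gng12 were above the level on all PBS arrays. Gnb4, Gnb5, Gng11 and Gngt2 were above it on 0. The RGS genes above it on all were Rgs3, Rgs8, Rgs10, Rgs14, Rgs16 and Rgs19. For Rgs8 this rests on 99553_f_at alone. Rgs11 was above it on 11 of 16 with 102650_at and on 0 with 161309_r_at. Rgs2, which acts preferentially on Gq, and the genes Rgs4, Rgs6, Rgs7 and Rgs9 were above it on 0.

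Downstream of Gq, Plcb1, a phospholipase that Gq activates, was read at 354.2 to 570.6 (median 459) by 92466_at. Its probe sets 92465_at and 92467_g_at were above the level on 0 and 5 of 16 PBS arrays. Plcb3 exceeded the level on 13 of 16 PBS arrays. Plcg1, the phospholipase of the T cell receptor, was above it on all arrays, Plcg2 on 1 and Plcd1 on 0. The IP3 receptor Itpr2 was above it with 2 of 4 probe sets, 101441_i_at at 246.5 to 531.0 and 101442_f_at at 31.4 to 109.2. Its probe sets 94565_at and 96420_at, without such an added letter, were above it on 0 PBS arrays. The protein kinase C genes Prkcd, Prkce, Prkcq (the theta isoform that T cells use at the synapse) and Prkcz were above it on all arrays, and Prkca, Prkcb, Prkch and Prkci on 8 to 14 of 16. For Prkcz this rests on 161964_r_at alone, since 96198_at was above it on 1 and 96571_at on 0 of 16.

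On the cAMP side, the cyclase Adcy7, known from blood cells, was read at 377.4 to 594.5 and Adcy3 at 48.7 to 86.2. Adcy4 was above the level on 15 of 16 PBS arrays and Adcy2 and Adcy8 on 0. For cAMP-dependent protein kinase, the catalytic subunits Prkaca and Prkacb and the regulatory subunits Prkar1a, Prkar1b and Prkar2a were all above it on every PBS array. Of the phosphodiesterase genes, Pde1b and Pde6d were above it on all 16, Pde4b on 14, Pde7a on 11 and Pde6a on 10. Pde6g was above it on 7, Pde8a on 6, Pde6b on at most 3, and Pde1a, Pde1c and Pde9a on 0.

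NmU changed the level of 8 of the 56 tested genes at 1 or more times with at least 1 probe set (14.3%, beside 15.2% of all tested genes): Rgs10, Rgs16, Gng12, Prkce and Prkar1b were higher, and Rgs14, Prkacb and Pde6d lower. By the brightest probe set of each gene alone, 6 passed (10.7%, beside 14.3% of all), since Rgs16 and Prkar1b passed only with a dimmer one. At the tested times, none of the genes for alpha or beta subunits, phospholipase C, the IP3 receptor or the adenylyl cyclases passed in limma. The test compared NmU with PBS at each time in 1 limma model of 8 group means over the 31 arrays, and a probe set was called at a Benjamini-Hochberg adjusted p under 0.05 over all 7930 probe sets.

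At 0.8 h, 0 of the 72 member probe sets were called in limma, beside 0.782% of all tested probe sets called higher and 0.0631% called lower. Without adjustment 4 of 72 (5.56%) had a p under 0.05, against 6.80% of all probe sets, and the lowest adjusted p was 0.197. At 3 h, 1 member probe set was higher (1.39%, beside 4.44% of all) and 3 were lower (4.17%, beside 5.73%), with 22.2% of members and 24.1% of all at an unadjusted p under 0.05. At 6 h, 6 were higher (8.33%, beside 2.85%) and 2 lower (2.78%, beside 2.03%), with 22.2% and 17.4% at an unadjusted p under 0.05. At 12 h, 3 were higher (4.17%, beside 0.858%) and 0 lower (beside 0.404%), with 11 of 72 (15.3%, beside 11.1% of all) at an unadjusted p under 0.05 in either direction. The median log2 fold change of the members was -0.07, -0.03, 0.06 and -0.06 at the 4 times, and that of all tested probe sets -0.04, -0.03, 0.02 and -0.02. These are small counts and their difference from all probe sets was not tested. The 6 higher probe sets at 6 h stand for 5 genes, since Rgs10 counts with 2. Among these 6, Rgs16 161609_at and Prkar1b 94944_at passed the filter only through NmU groups, which favoured a higher call. Rgs16 161609_at was also the 1 higher at 3 h. Of members that passed through both PBS and NmU groups, 7 of 65 were called at 1 or more times, beside 1021 of 7586 of all.

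**Figure D2:**
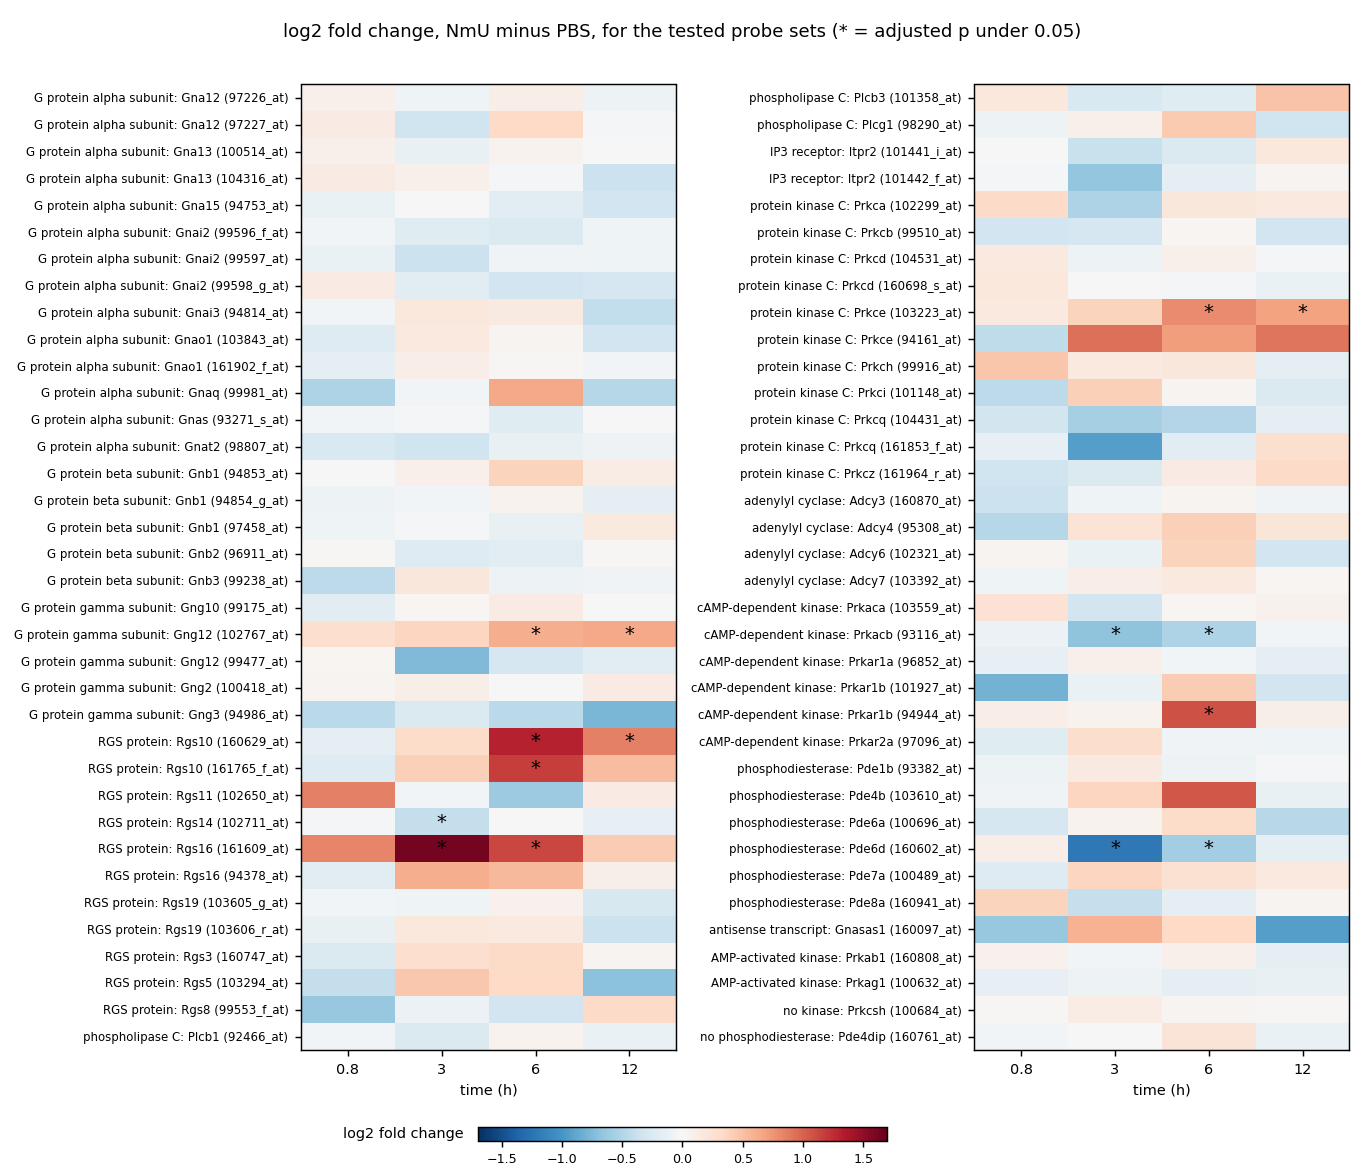
Colour shows the log2 fold change of NmU against PBS (scale bar) for each of the 72 tested probe sets, by role in rows and by time in h in columns; an asterisk marks an adjusted p under 0.05 in limma. Asterisks fall in the rows of RGS proteins, a gamma subunit, protein kinase C, cAMP-dependent protein kinase and a phosphodiesterase, and in the columns 3, 6 and 12 h.

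RGS proteins held 3 of the 8 genes, Rgs16 among them with its dimmer probe set. Rgs10, which speeds GTP hydrolysis by Gi-class subunits and is abundant in immune cells, was called higher than PBS at 6 and 12 h. With probe set 160629_at its signals at 6 h were 72.3, 69.2, 67.3 and 70.7 in PBS and 185.7, 192.7, 184.3 and 135.3 in NmU. All 4 NmU arrays lay above all 4 PBS arrays, and the lowest NmU array was the replicate 4 named above. The means were 69.9 ± 2.13 and 174 ± 26.4 (SD, n = 4 each), a log2 fold change of 1.31 ± 0.14 (SE) or 2.47-fold (limma adjusted p = 7.54e-07), and without that array it was 1.42.

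At 12 h the same Rgs10 probe set read 66.1, 73.3, 56.6 and 76.5 in PBS and 137.7, 118.5, 123.4 and 112.8 in NmU, again with no overlap. This was a log2 fold change of 0.86 ± 0.14 (limma adjusted p = 0.000634). At 0.8 h and 3 h the values were -0.16 and 0.31 (limma adjusted p = 0.943 and 0.212). The 3 h arrays read 89.8, 99.0, 73.4 and 110.9 in PBS and 106.5, 119.1 and 117.0 in NmU. PBS itself was thus higher at 3 h than at 0.8 h, by a log2 fold change of 0.43, though its change with time was not called (F test, limma adjusted p = 0.427). A second Rgs10 probe set, 161765_f_at, gave the same picture at 6 h, with 44.6, 50.7, 46.1 and 59.7 in PBS against 115.8, 130.1, 132.9 and 82.8 in NmU, a log2 fold change of 1.18 ± 0.14 (limma adjusted p = 4.69e-06). At 3 h its groups did not overlap, at 55.5 to 76.3 in PBS and 88.7 to 91.8 in NmU, but 0.40 was not called (limma adjusted p = 0.1). At 12 h its groups did not overlap either, but it missed the threshold with 0.52 ± 0.14 (limma adjusted p = 0.0737). It passed without replicate 4 of NmU at 6 h (limma adjusted p = 0.0272) and without replicate 1 of PBS at 12 h (0.0435). The third Rgs10 probe set, 103384_at, was above 20.2 on no array.

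Rgs16, which acts on Gi and Gq subunits and is known as an activation-induced gene of lymphocytes, was called higher at 3 and 6 h. Its probe set 161609_at, whose mean was under 20.2 in all 4 PBS groups, was tested only because NmU groups exceeded that level. The signals at 3 h were 9.2, 12.1, 15 and 23.1 in PBS and 42.0, 44.1 and 44.5 in NmU. The 3 NmU arrays were close together and above every PBS array, with a log2 fold change of 1.63 ± 0.27, or 3.11-fold (limma adjusted p = 0.000148). At 6 h the PBS arrays read 21.0, 13.8, 18.8 and 13.8 and the NmU arrays 43.7, 44.6, 33.1 and 26.5, a log2 fold change of 1.13 ± 0.25 (limma adjusted p = 0.00712). The groups did not overlap at 0.8 h either, at 9.0 to 17.0 against 18.0 to 32.3, where the value of 0.83 ± 0.25 missed the threshold (limma adjusted p = 0.197). At 12 h it was 0.43 with overlapping groups (adjusted p = 0.56).

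The other Rgs16 probe set, 94378_at, was the brighter one. At 3 h it read 60.1, 97.3, 89.3 and 46.4 in PBS and 102.7, 104.2 and 117.3 in NmU. Every NmU array was above every PBS array, yet the log2 fold change of 0.62 ± 0.20 fell just short of the threshold (limma adjusted p = 0.0519), as did 0.55 ± 0.19 at 6 h (limma adjusted p = 0.0946). Without replicate 4 of PBS at 3 h, the lowest of these arrays, the 3 h value was 0.42 (limma adjusted p = 0.167), while that of 161609_at was 1.88, and the 6 h value of 94378_at then passed (0.55, limma adjusted p = 0.045). Its 3 h value passed with arrays scaled to a common median, with quantile normalization, with trend and robust variances (limma adjusted p = 0.0318, 0.0283 and 0.046), and without any 1 of 4 arrays: replicate 2 or 3 of PBS at 3 h (0.0149 and 0.0283), replicate 2 of NmU at 6 h (0.046) or replicate 2 of NmU at 12 h (0.0482). So the 2 Rgs16 probe sets shared the direction at 3, 6 and 12 h and differed in size, and at 0.8 h 94378_at gave -0.19.

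Rgs14, which binds Gi-class subunits and small GTPases, was lower at 3 h. Its signals were 947.8, 845.3, 849.7 and 674.4 in PBS and 574.7, 603.3 and 695.1 in NmU. The groups overlapped through PBS replicate 4 and NmU replicate 3, and the log2 fold change was -0.40 ± 0.11 (limma adjusted p = 0.0177). Without PBS replicate 4 it was -0.50, and the call was lost without PBS replicate 1 and without NmU replicate 1 or 2. At the other times it lay between -0.14 and 0.00. Of the remaining tested RGS genes, Rgs3, Rgs5, Rgs8, Rgs11 and Rgs19, 0 were called; the largest early value, 0.86 for Rgs11 at 0.8 h, had an SE of 0.65.

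**Figure D3:**
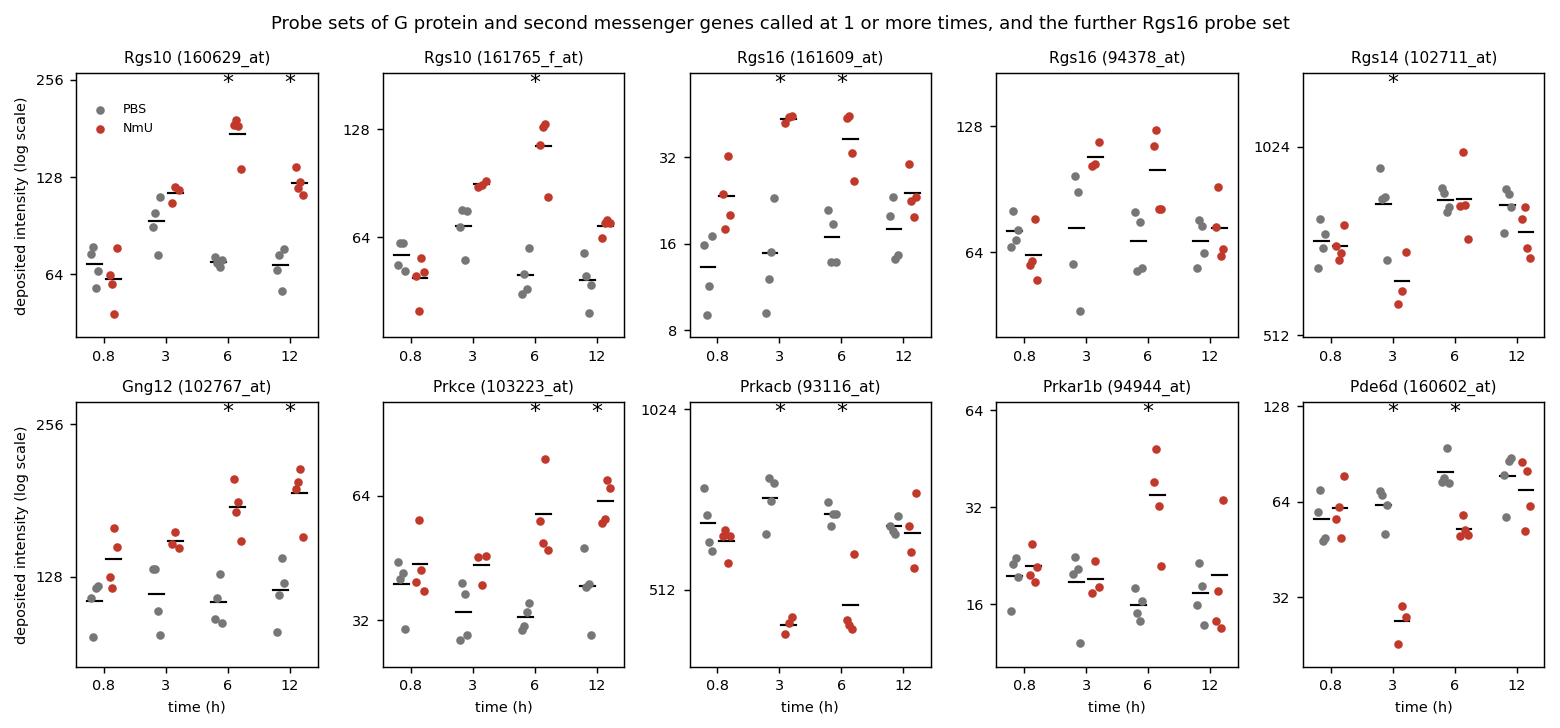
Deposited intensity on a log axis for each array (points; grey PBS, red NmU), by time in h, with a bar at the group's mean signal; an asterisk marks an adjusted p under 0.05 in limma. Rgs10 and Gng12 separate at 6 and 12 h, Rgs16, Prkacb and Pde6d at 3 and 6 h.

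Among the G protein subunits themselves, only Gng12 was called, of 16 tested genes for alpha, beta and gamma subunits. Gng12 encodes a gamma subunit that anchors the beta-gamma dimer to the membrane. With probe set 102767_at it read 105.7, 116.3, 129.6 and 103.8 in PBS and 199.4, 171.8, 179.5 and 150.5 in NmU at 6 h, with no overlap and a log2 fold change of 0.62 ± 0.13 (limma adjusted p = 0.00324). At 12 h the arrays read 99.3, 117.9, 139.6 and 124.4 in PBS and 190.5, 197.2, 209.2 and 153.3 in NmU, a log2 fold change of 0.64 ± 0.13 (limma adjusted p = 0.0053). The increase was thus of like size at both times, and smaller and uncalled at 0.8 and 3 h (0.28 and 0.36). The dimmer probe set 99477_at did not share this: its values were 0.03, -0.75, -0.28 and -0.19 at the 4 times (limma adjusted p from 0.133 to 0.993), so the increase rests on 1 of 2 probe sets.

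For the Gq and Gs subunits no difference passed, and the intervals show what size was still allowed. Gnas had log2 fold changes of -0.05, -0.03, -0.21 and 0.01 at 0.8, 3, 6 and 12 h, with a 95% interval from -0.45 to 0.03 at 6 h. Gna15 had -0.11, -0.01, -0.19 and -0.32, the last with an interval of -0.61 to -0.04 and a limma adjusted p of 0.352. Gnaq, being dim, gave wide intervals: -0.52, -0.04, 0.65 and -0.48, of which the 6 h value had an interval of 0.05 to 1.25 and a limma adjusted p of 0.232. These intervals are for single probe sets and are not corrected for the number tested. The Gi subunit Gnai2 gave -0.36 to -0.06 over its 3 probe sets at 3 h and 6 h, and 0 of these passed (lowest limma adjusted p 0.112). At 12 h they gave -0.29 to -0.07, none called. Gnai3 gave -0.04, 0.18, 0.15 and -0.42 at the 4 times. Its 12 h value had an interval of -0.69 to -0.14 and a limma adjusted p of 0.164.

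Within the phospholipase C branch, Plcb1 had log2 fold changes of -0.04, -0.24, 0.06 and -0.11 with 92466_at, its only tested probe set. The widest interval reached from -0.57 to 0.09 at 3 h. The 2 tested probe sets of Itpr2 gave -0.38 and -0.66 at 3 h (limma adjusted p = 0.297 and 0.19). Of the 8 tested protein kinase C genes 1 was called. Prkce, a diacylglycerol-responsive and calcium-independent isoform, read 30.3, 31, 33.5 and 35.3 in PBS and 55.5, 49.3, 78.7 and 47.2 in NmU at 6 h with probe set 103223_at. The groups did not overlap, and the log2 fold change was 0.80 ± 0.16 (limma adjusted p = 0.00342).

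At 12 h Prkce read 47.9, 38.5, 39.2 and 29.5 in PBS and 55.0, 56.3, 69.8 and 67.0 in NmU, a log2 fold change of 0.69 ± 0.16 (limma adjusted p = 0.0301). This call was lost without any 1 of 5 arrays, namely PBS replicates 2, 3 and 4 and NmU replicates 3 and 4 of that time. The second Prkce probe set, 94161_at, gave 0.93 ± 0.33, 0.71 ± 0.30 and 0.91 ± 0.30 at 3, 6 and 12 h and was called at no single time (limma adjusted p = 0.0722, 0.204 and 0.191). Its 3 h value was 0.55 without replicate 4 of PBS. The T cell isoform Prkcq was not called: its 2 probe sets gave -0.56 and -0.93 at 3 h (limma adjusted p = 0.161 and 0.10).

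**Figure D4:**
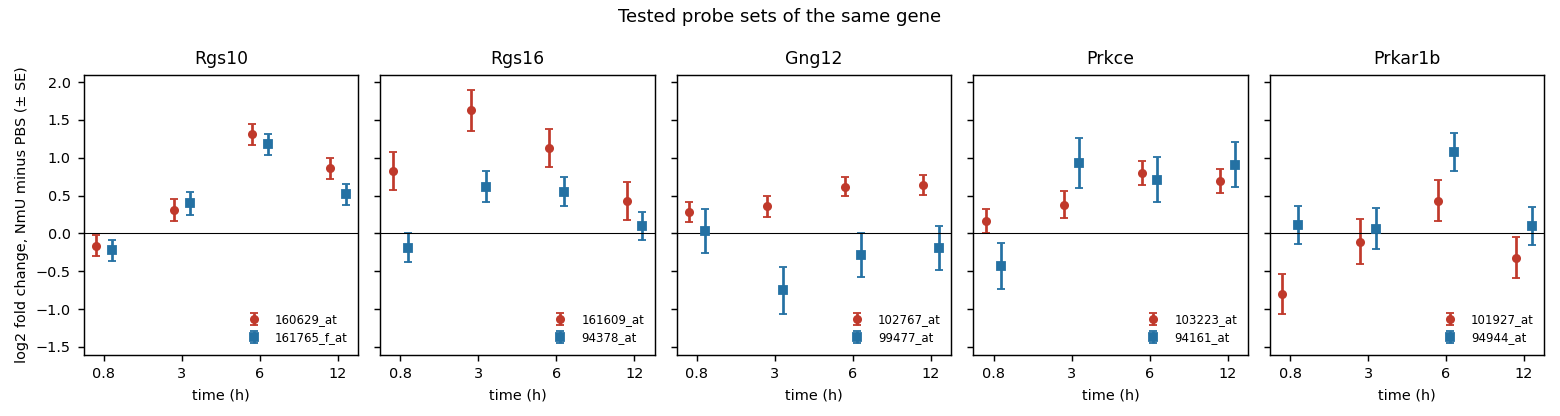
Log2 fold change of NmU against PBS with its SE (vertical axis) by time in h, for the 2 tested probe sets of Rgs10, Rgs16, Gng12, Prkce and Prkar1b. The probe sets of Rgs10 follow each other at all 4 times, those of Gng12 part at 3, 6 and 12 h, and for Prkar1b 94944_at lies above 101927_at at each time.

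In the cAMP branch 2 of the 5 kinase genes were called, Prkar1b with its dimmer probe set only, and 0 of the 4 tested cyclases. Prkacb, a catalytic subunit of cAMP-dependent protein kinase, fell at 3 h from 632.8, 785.0, 719.0 and 770.0 in PBS to 431.5, 450.8 and 460.2 in NmU. The groups were far apart, and the log2 fold change was -0.69 ± 0.11 (limma adjusted p = 6.24e-05). At 6 h the arrays read 718.2, 654.3, 685.3 and 684.9 in PBS and 455.2, 446.8, 440.2 and 587.4 in NmU, a log2 fold change of -0.52 ± 0.10 (limma adjusted p = 0.00191), or -0.62 without NmU replicate 4. At 12 h the difference was -0.05 with overlapping groups (95% interval -0.25 to 0.16).

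The other catalytic subunit, Prkaca, had -0.32 at 3 h with groups that did not overlap, and did not pass (limma adjusted p = 0.193). The regulatory subunit Prkar1b was called at 6 h with the dim probe set 94944_at, at 18.0, 15, 14.2 and 16.4 in PBS and 38.4, 48.5, 32.2 and 21.0 in NmU. Here the log2 fold change was 1.08 ± 0.25 (limma adjusted p = 0.00847) and the PBS arrays all lay under 20.2; this probe set too was tested only because NmU groups exceeded that level. The brighter probe set of the gene, 101927_at, gave 0.43 ± 0.27 at that time (limma adjusted p = 0.443). Adcy7 ranged from -0.07 to 0.17 and Adcy3 from -0.36 to 0.05 over the 4 times, none called.

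Pde6d was the only called gene of the phosphodiesterases, of 6 tested. It was first named as a subunit of the photoreceptor enzyme and encodes a carrier of prenylated proteins rather than a catalytic subunit. At 3 h it read 69.3, 67.0, 50.6 and 62.5 in PBS and 22.8, 30 and 27.6 in NmU, with no overlap. This was a log2 fold change of -1.22 ± 0.18, or 2.32-fold lower (limma adjusted p = 3.52e-05). At 6 h it read 73.8, 75.8, 94.3 and 73.4 in PBS and 49.9, 57.9, 52.0 and 50.1 in NmU, a log2 fold change of -0.59 ± 0.17 (limma adjusted p = 0.0364). That call was lost without any 1 PBS array of that time and without NmU replicate 1, 3 or 4. By 12 h the value was -0.15 (95% interval -0.50 to 0.19).

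The cAMP-hydrolysing enzyme Pde4b had the largest uncalled value at 6 h. It read 29.0, 15.5, 26.1 and 10.6 in PBS and 44.5, 32.5, 44.8 and 35.7 in NmU. No array overlapped, but the spread was wide at these low signals, and 1.05 ± 0.34 did not pass (limma adjusted p = 0.0786). PBS was lowest at 6 h, against 21.5 to 49.8 at 0.8 h, 21.9 to 49.4 at 3 h and 33.4 to 73.4 at 12 h. The NmU arrays of those other times read 19.5 to 51.2, which spans the NmU values of 6 h. The change with time in PBS was not called (F test, limma adjusted p = 0.405).

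An F test in the same model asked whether NmU had an effect at any of the 4 times. It called 10 of the 72 member probe sets (13.9%, beside 11.6% of all): both of Rgs10, both of Rgs16, both of Prkce, Gng12, Prkacb, Prkar1b 94944_at and Pde6d. Of these, Rgs16 161609_at and Prkar1b 94944_at had passed the filter only through NmU groups. Rgs14 was not among the 10 (limma adjusted p = 0.0944). A second F test asked whether the effect differed between times, and called 4 member probe sets (5.56%, beside 4.04% of all). These were Pde6d (limma adjusted p = 0.00603), Prkacb (0.012) and both probe sets of Rgs10 (0.000138 and 0.000644). Prkacb and Pde6d were lowest against PBS at 3 h and near it at 12 h, whereas Rgs10 was highest at 6 h and still raised at 12 h. Within PBS cells, a test of change with time called 0 of the 72 (beside 0.0126% of all), with 13 (18.1%, beside 8.74% of all) at an unadjusted p under 0.05 and a lowest limma adjusted p of 0.405.

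Neighbouring genes of the pathway, from lists of related genes rather than from the name rule, held 4 called genes of 35 tested (11.4%, beside 14.3% of all tested genes by their brightest probe set). The NmU receptor Nmur1, read at 83.1 to 271.8 over all arrays, was not called at any time; at 3 h it was 214 ± 84.0 in PBS (SD, n = 4) and 127 ± 38.3 in NmU (n = 3), a log2 fold change of -0.67 (limma adjusted p = 0.112). Of 5 tested receptor kinases, arrestins and G protein chaperones 0 were called in limma at any time. Of 9 tested genes of calcium entry and pumping and its effectors 1 was lower, the calcineurin subunit Ppp3cc at 3 h (-0.78 ± 0.18, limma adjusted p = 0.00435). Among 13 genes of inositol phosphate and diacylglycerol metabolism, the lipid kinase Pip4k2a was lower at 3 h (-0.54 ± 0.13, limma adjusted p = 0.00748) and the IP3 kinase Itpkb at 12 h (-0.49 ± 0.12, limma adjusted p = 0.0412). Of 7 genes of cAMP effectors and cAMP-responsive factors Crem, a cAMP-inducible factor, was higher at 0.8 h and 3 h (0.71 ± 0.11 and 1.34 ± 0.12, limma adjusted p = 0.000226 and 1.44e-08). At 3 h the median log2 fold change was -0.12 for the receptor kinase list, -0.21 for the calcium list, -0.14 for the inositol phosphate list and 0.01 for the cAMP list, beside -0.03 for all tested probe sets.

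Some markers of other cells were above 20.2 on all arrays. Not all markers were level between groups at the times of the Rgs10, Gng12, Prkce and Prkar1b increases. Of 9 macrophage and dendritic cell genes 3 were above 20.2 on all arrays and 4 on none, and Cd68 was called higher at 6 h (0.54 ± 0.15, limma adjusted p = 0.037) and 12 h (0.61 ± 0.15, limma adjusted p = 0.0457). The summed signal of that list at 6 h was 233 to 254 in PBS and 267 to 320 in NmU, and at 12 h 220 to 328 and 285 to 360. Of 6 neutrophil genes 1 was above it on all arrays and 3 on none, and Mpo was called higher at 6 h (0.86 ± 0.18, limma adjusted p = 0.00484), with a summed signal of 77.1 to 99.7 in PBS and 93.6 to 142 in NmU. For B cell genes 2 of 6 were above it on all arrays and 0 were called, for mast cell and basophil genes 1 of 7 and 0, and for erythroid genes 0 of 2 and 0. Their part in the increases at 6 and 12 h was not tested. In a bulk sample, fewer cells expressing a gene and less RNA of it per cell cannot be told apart.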

How the data were processed

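The authors deposited linear intensities, 1 per probe set, for 31 single-colour arrays; how they were scanned, summarised and scaled was not stated. After trimming 2% at each end, array means were 149.96 to 149.97, so no further scaling was applied and changes are relative to the rest of the array. Intensities under 5.8 (20th percentile) were raised to that value and log2 was taken, which understates changes of dim genes. Probe sets above 20.2 (40th percentile) in 1 or more group means were tested with limma 3.58.1 (R 4.3.3; 8 group means, 23 residual degrees of freedom), adjusted over 7930 probe sets. The script was tested on simulated data.

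Annotation gave 10833 of 12422 probe sets 1 symbol, 396 several and 1193 none; all 123 members matched RefSeq gene numbers. Endings such as _f or _s mark probes that may match related transcripts. A member gene was counted as called if 1 or more of its probe sets passed, and counts by the brightest probe set alone are given beside; genes of related lists were read by the brightest. Any member could be named, those called with every array. The uncalled members Rgs11, Pde4b, Prkcq, Gnai2 and Gnai3 were picked after their values were seen. Of related lists, Nmur1 and called genes were named. Members and lists were chosen with earlier results of these data known. Arrays were not paired by replicate number in the model, as the labels name no pairing. Of 15 pairs with the same number, 4 correlated over 0.1 in their deviations (-0.22 to 0.20). Pairs of unlike number were not compared, so this cannot decide whether arrays were paired. Alternatives were the floor, filter, scaling, samples fitted, replicate block, variance model, mean of probe sets and each array left out. Precision is limited by the small number of arrays.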

Additional observations from a re-analysis of the deposited data

Results flagged for a closer look

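Among 77 groups of 4 arrays searched over the 11 probe sets called at a single time or by the F test over all times, 4 held an array far from the other 3, and chance gives about 1 in 20 groups. Prkacb at 6 h in NmU had 587.4 on replicate 4 against 440.2 to 455.2. Rgs10 160629_at at 6 h in NmU had 135.3 on the same array against 184.3 to 192.7. Pde6d at 6 h in PBS had 94.3 on replicate 3 against 73.4 to 75.8. Prkce 94161_at at 0.8 h in NmU had 12.1 on replicate 4 against 21.9 to 23.7. For both Prkacb and Rgs10, replicate 4 of NmU at 6 h lay towards the PBS arrays, and it is the array with the high Egr2 signal. Without being flagged, it was also the NmU array nearest to PBS at 6 h for Gng12 102767_at (150.5) and Prkce 103223_at (47.2). The same held for Prkar1b 94944_at (21.0), Rgs16 161609_at (26.5) and Rgs10 161765_f_at (82.8), but not for Pde6d (50.1). The calls of these increases at 6 h were kept when any 1 array was left out.

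The effect of NmU differed between times for 4 probe sets by an F test of the interaction in limma. The adjusted p was 0.000138 and 0.000644 for the Rgs10 probe sets 160629_at and 161765_f_at, 0.00603 for Pde6d and 0.012 for Prkacb. Rgs10 was raised at 6 h on all 4 NmU arrays with both probe sets, and Pde6d and Prkacb were lowered at 3 h on all 3 NmU arrays.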

How the results depend on the processing

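Leaving out each of the 31 arrays in turn gave 0 member probe sets called at 0.8 h in every fit, 3 to 6 at 3 h, 7 to 9 at 6 h, 2 to 4 at 12 h, 8 to 11 for an effect at any time, 4 to 5 for a difference between times and 0 for change with time in PBS. With only the 2 groups compared in the fit, 1 probe set was called at 12 h, that of Rgs10, against 3 in the fit of all groups. With the mean of all probe sets of a gene, 5 genes were called at 3 h against 3 by its brightest probe set: Pde6d, Prkacb, Prkcq, Rgs14 and Rgs16. No value changed its direction among those that were called. The calls of Rgs10 160629_at at 6 and 12 h, Rgs10 161765_f_at at 6 h, Rgs16 161609_at at 3 and 6 h, Prkacb and Pde6d at 3 h and Prkce and Gng12 at 6 h held under every alternative run on the probe set, the Rgs10 value at 6 h lying between 1.22 and 1.42. With the mean of both probe sets, Gng12 was 0.17 at 6 h (limma adjusted p = 0.623). Rgs14 at 3 h and Pde6d at 6 h were lost with arrays scaled to a common median (0.0551 and 0.0538, limma adjusted p), and Pde6d with no filter (0.0526). Fits of the 2 groups alone also lost Rgs14 at 3 h (0.237), Prkce at 12 h (0.146), Gng12 at 12 h (0.126), Prkacb at 6 h (0.0601) and Prkar1b at 6 h (0.0581), given as limma adjusted p. With the replicate number as a block, 0, 4, 8 and 2 member probe sets were called at the 4 times and Prkce at 12 h was lost (limma adjusted p = 0.0738); the samples share only a number, so this is a description. Promoter shares over 300 bases, 50 of them after the start, were 15.4% of the called genes' promoters (2 of 13) for GCGNGGGCG, beside 5.55% of all promoters. For TGACGTCA the share was 2.83% of the members' promoters (3 of 106), beside 1.79% of all. The 250-base window was chosen after seeing the data. Low signals limit Rgs16 161609_at and Prkar1b 94944_at, whose PBS arrays lie near or under the level used for testing.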
